A study of Homo sapiens with 9 samples.

Results

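Histone methyltransferases, demethylases, acetyltransferases and deacetylases, with the enzymes that place and remove DNA methylation, were followed in A375 cells treated with TP-472. The members were taken by symbol from the count table, as the KDM, HDAC, SIRT, KMT2, SETD, DNMT1 and DNMT3, TET, KAT and EZH families together with EED, SUZ12, EP300 and CREBBP, and came to 70 of the 26475 symbols in the table. Of these, 68 passed the filter on low counts. DNMT3L, a cofactor of the de novo DNA methyltransferases, had 0 or 1 count in every library, and KDM5D also did not pass.

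The A375 line was derived from a human melanoma and carries an activating BRAF mutation. TP-472 binds the bromodomains of BRD9 and BRD7, which are subunits of SWI/SNF chromatin remodelling complexes. The cells were given DMSO, the solvent, or TP-472 at 5 µM or 10 µM for 24 h. Each group was sequenced as 3 libraries, described in the design text as biological replicates, and all 9 libraries come from 1 cell line. The expected counts of a library, as estimated by RSEM, summed to between 42483091 and 51298130.

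Acetyl groups on histone tails are placed by acetyltransferases such as EP300 and removed by the zinc-dependent HDAC enzymes and the NAD-dependent sirtuins. Methyl groups on histone lysines are placed by SET domain enzymes and removed by the flavin-dependent KDM1 enzymes and the JmjC domain demethylases, and their meaning depends on the lysine, since trimethylated H3K4 marks active promoters and trimethylated H3K27, the product of Polycomb repressive complex 2 (PRC2), marks silenced genes. DNMT1 copies DNA methylation after replication, DNMT3A and DNMT3B add it anew, and the TET dioxygenases oxidise it. In melanoma EZH2, the catalytic subunit of PRC2, is known as a drug target.

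Values are given in CPM, the expected counts of a gene relative to the TMM-scaled size of the library, always in the order replicate 1, 2 and 3. Changes are log2 fold changes with their standard errors from edgeR, and a member was called when the p of the quasi-likelihood test, adjusted by Benjamini-Hochberg over all 16417 genes tested, was under 0.05. Where a member was not called, its log2 fold change is given as an estimate. In RNA from whole cultures, fewer cells of a type and less RNA per cell cannot be told apart.

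The lineage label was checked against marker genes. SOX10, the transcription factor of the neural crest and melanocyte lineage, was at 363 to 426 CPM and MITF at 23.3 to 35.9 CPM in the 9 libraries. S100B was at 5.33 to 9.38 CPM and S100A1 at 0.672 to 3.21 CPM. The pigment genes were low or absent, with TYR at 0 in every library, DCT at no more than 0.0192 CPM and MLANA at no more than 0.346 CPM. TYRP1 reached 0.865 CPM and PMEL was at 0.968 to 2.87 CPM. Of the markers of other cells, CD3E of T lymphocytes was at 0 in every library, and the 5 leukocyte markers summed to 59.3 to 64.9 CPM for DMSO, 89.3 to 89.6 CPM for 5 µM and 91.9 to 136 CPM for 10 µM, nearly all of it CD68, a lysosomal protein. The 4 endothelial markers summed to 4.16 to 5.56 CPM for DMSO, 5.67 to 9.35 CPM for 5 µM and 10.3 to 16.3 CPM for 10 µM, with KDR the member that differed most, and the 5 keratinocyte markers held 6.52 to 10.9 CPM over all libraries. Their part in the results was not tested.

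Replicate 1 at 10 µM stood apart from the other libraries in these enzymes. All 70 members, tested or not, summed to 3102 CPM there, against 3954 and 3980 CPM in replicates 2 and 3 of its group, 4070 to 4100 CPM at 5 µM and 4172 to 4264 CPM in DMSO. It held the lowest value of its group for 48 of the 68 members, or 70.6%. The ratio of its CPM to the mean of replicates 2 and 3 had a median of 0.777 over the members and ran from 0.0937 for TET1 to 1.74 for SIRT3.

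The difference followed transcript length. Across the 68 members the log2 deviation of replicate 1 from the mean of the other libraries of its group was set against the log of the longest annotated transcript. The Pearson r was -0.62 and the Spearman rho -0.72, as a description of genes that share 1 library. The 22 members with transcripts of at least 8 kb were at a median log2 ratio of -0.79 in replicate 1 against the mean of the other libraries of its group, and the 20 members under 4 kb at 0.11. Members had long transcripts, with a median of 5696 bases against 3488 bases over the 15794 tested genes with a known length. A trend with length and GC content took up 6.32% of the variance of this library's deviation over all genes, 2.60% and 3.03% in the other libraries of its group and at most 0.298% in DMSO and 5 µM libraries. Results at 10 µM are therefore given with and without replicate 1.

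**Figure D1:**
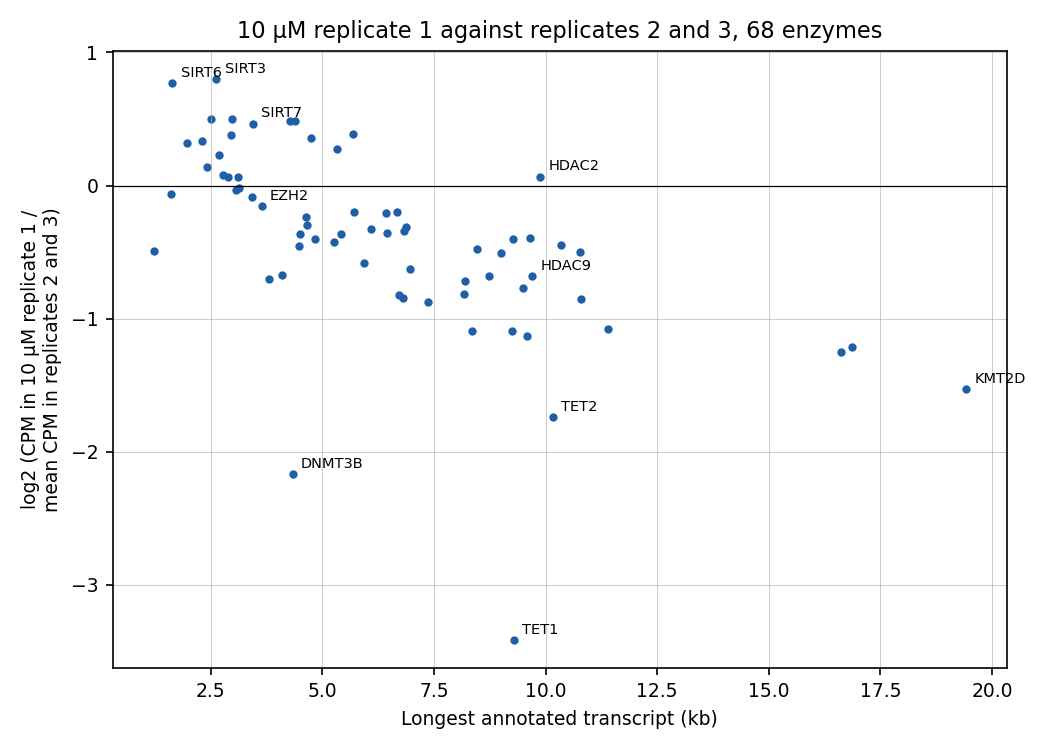
Each point is 1 of the 68 tested enzymes, with the length of its longest annotated transcript in kb on the horizontal axis and the log2 ratio of its CPM in 10 µM replicate 1 to its mean CPM in 10 µM replicates 2 and 3 on the vertical axis. Points fall from left to right, from SIRT6 and SIRT3 above 0 to KMT2D, whose ratio was 0.346, and TET1 and DNMT3B lie lowest at ratios of 0.0937 and 0.222.

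In DMSO the enzymes spanned a wide range of levels. Mean CPM ran from 1.69 for SIRT4 to 282 for DNMT1, and the median level per length was 8.15 CPM per kb of the longest annotated transcript. HDAC1 was highest per length at 92.9 ± 1.64 CPM per kb (SD, n = 3), followed by KDM1A at 63.7 ± 0.996 CPM per kb and DNMT1 at 52.1 ± 0.102 CPM per kb. These neighbours in the order were separated by more than their spread. TET1 at 0.527 ± 0.074 CPM per kb, KDM4D at 0.829 ± 0.0922 CPM per kb and DNMT3B at 0.924 ± 0.111 CPM per kb were the 3 tested members under 1 CPM per kb, and KDM4D and DNMT3B differed by less than their spread. Within the DNA methyltransferases, the level per length of the maintenance enzyme DNMT1 was thus far above those of DNMT3B and DNMT3A (1.43 ± 0.0655 CPM per kb). A transcript shorter than the longest annotated one would raise the level per length, and which transcripts A375 cells use was not tested.

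**Figure D2:**
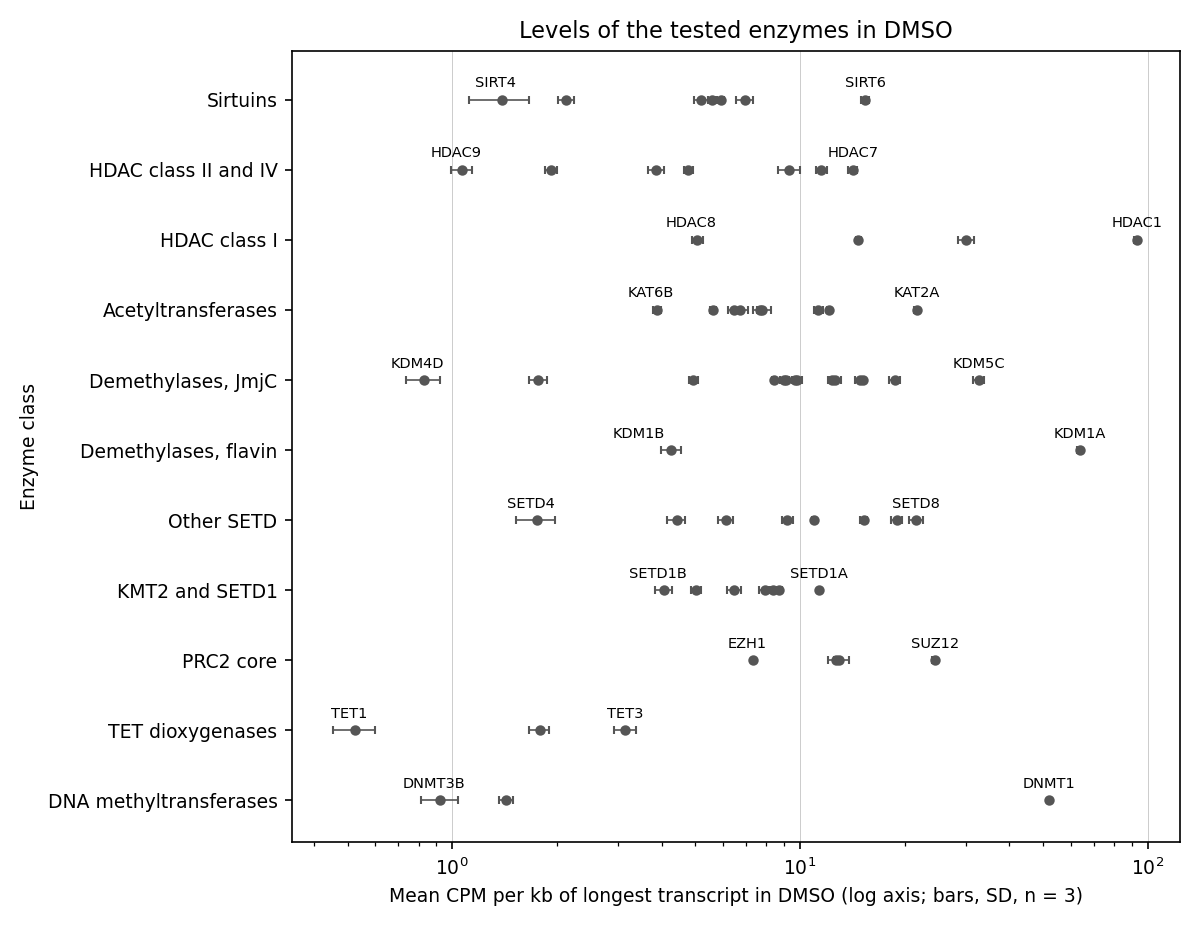
Each point is the mean level of 1 tested enzyme in the 3 DMSO libraries, in CPM per kb of its longest annotated transcript on a log axis, with bars of 1 SD, and the rows are enzyme classes with the lowest and highest member of each named. The TET dioxygenases are all low, between 0.527 and 3.14 CPM per kb, and HDAC1, KDM1A and DNMT1 are the 3 highest members.

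At 5 µM few members passed the test. KAT2A, the acetyltransferase of the SAGA and ATAC complexes, rose, and EZH2, HDAC5 and HDAC7 fell. This was 1 of 68 members higher, where 4.40% of all genes tested were called higher, and 3 of 68 lower, where 5.81% of all genes were called lower. None of the members reached a fold change of 1.5 with an adjusted p under 0.05 by edgeR, against 2.14% of all genes higher and 2.72% lower. At an unadjusted p under 0.05, 5 members were higher and 9 lower, where 11.6% and 12.8% of all genes were. DESeq2 called 2 higher and 6 lower at an adjusted p under 0.05 with no fold limit, where it called 7.57% and 9.09% of all genes. The 3 libraries at 5 µM lay wholly above the 3 DMSO libraries for 14 members and wholly below them for 26, where 23.7% and 25.0% of all genes did so.

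The calls at 5 µM were sensitive to single libraries, including libraries at 10 µM, because all groups share 1 estimate of the spread. Without 10 µM replicate 1, the fit called 12 members higher at 5 µM (16.5% of all genes) and 19 lower (17.6% of all genes), with fold changes almost as before. Without DMSO replicate 1 or 2 the call for KAT2A was lost, which left 0 members higher. Without any 1 of the DMSO libraries, or without replicate 1 or 3 at 5 µM, 0 members were called lower, and without replicate 2 at 5 µM 1 was. Shares of all genes called are not given here for the fits without a DMSO or 5 µM library. Fold changes at 5 µM were small in either fit, from -0.54 for DNMT3B to 0.87 for SIRT4 on the log2 scale with all libraries.

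At 10 µM, 26 members were called. The 8 that rose were HDAC9, SIRT4, SIRT6, SIRT7, SETD4, SETD6, KDM1B and KAT2A. The 18 that fell were DNMT1, DNMT3A, EZH2, SUZ12, HDAC1, HDAC2, HDAC5, HDAC6, HDAC7, HDAC10, KAT2B, KDM2B, KDM3A, KDM5B, KMT2E, SETD5, SETD8 and SIRT3. Over all genes tested, 16.4% were called higher and 18.0% lower, so the share of members lower (26.5%) stood above that of all genes and the share higher (11.8%) below it. With a fold change of at least 1.5 as well, 4 members were higher (8.57% of all genes), namely HDAC9, SIRT4, SIRT7 and SETD4, and 8 were lower (10.5% of all genes), namely DNMT3A, HDAC5, HDAC6, HDAC7, KDM2B, KDM3A, KMT2E and SIRT3. The libraries at 10 µM lay wholly above DMSO for 9 members and wholly below for 30, where 23.4% and 26.0% of all genes did so. Of the 26 called members, KDM1B was the 1 whose libraries overlapped with DMSO.

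Without replicate 1 at 10 µM, 17 members were called higher (25.0% of members and 23.0% of all genes) and 25 lower (36.8% of members and 25.8% of all genes). The share of members higher was thus below that of all genes with every library and above it without this library. All 26 members called with every library were among them, with the same sign. Of those called by at least 1.5-fold with every library, SETD4, DNMT3A, HDAC7, KDM2B, KDM3A and KMT2E were under 1.5-fold without this library. The median log2 fold change of the 68 members was -0.16 with every library and -0.09 without this library, against 0.01 over all genes in both fits. The estimates of 13 members changed sign between the fits, and the shift differed with length. The 22 members of at least 8 kb had a median log2 fold change of -0.20 with and -0.02 without replicate 1, and the 20 members under 4 kb one of -0.04 and -0.10. When the trend with length and GC content was removed from every library, 11 members were called higher (19.6% of all genes) and 23 lower (21.0% of all genes). All 3 fits called 7 of the 8 members that rose, the exception being SIRT4, and 17 of the 18 that fell, the exception being HDAC2. Removing the trend also added calls, with KDM6A, KDM7A, SETD1A and SIRT2 higher and HDAC3, HDAC11, KAT6B, KDM3B, KMT2A and SETD9 lower. Of these, SETD1A, SIRT2 and SETD9 were called in neither of the other fits. Leaving out DMSO replicate 1, 2 or 3 left 4, 5 or 3 members higher and 10, 11 or 11 lower. The share of all genes called in those fits is not given here, so these counts cannot be set against all genes.

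**Figure D3:**
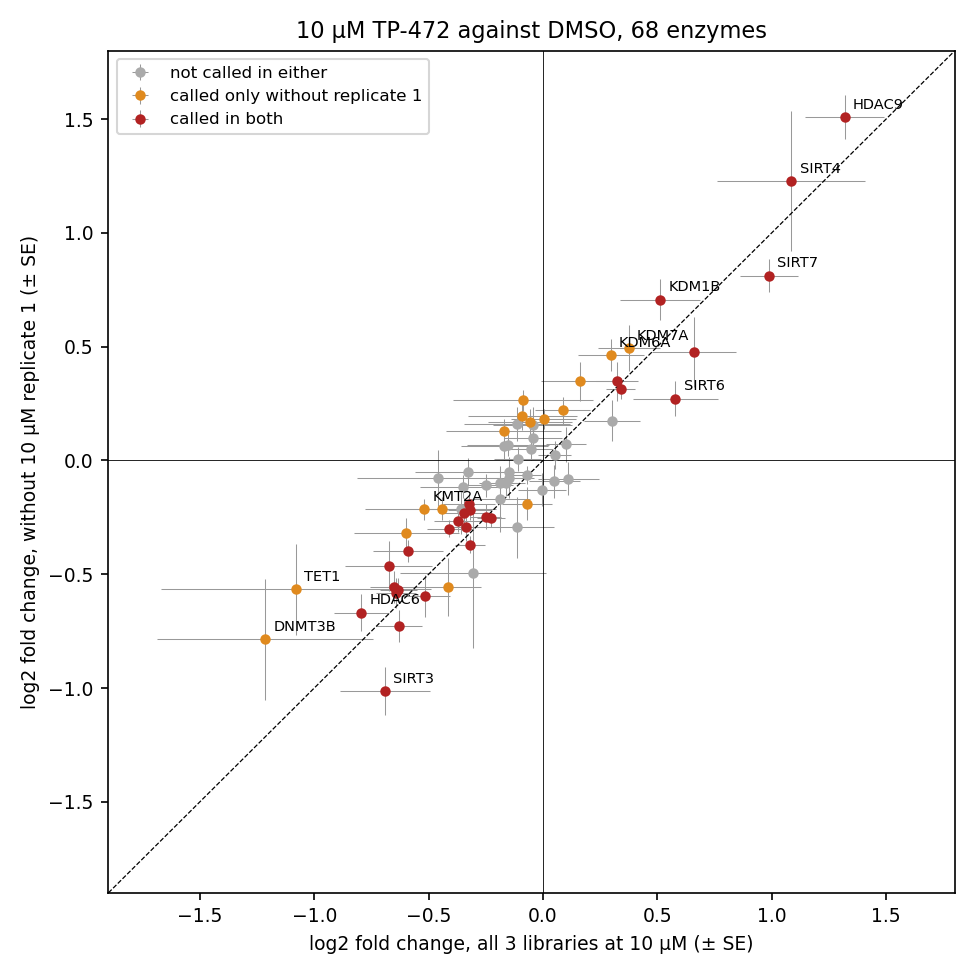
Each point is 1 of the 68 tested enzymes, with its log2 fold change at 10 µM against DMSO from all libraries on the horizontal axis and from the fit without 10 µM replicate 1 on the vertical axis, bars of 1 standard error and a dashed line of equality. DNMT3B and TET1, not called with all libraries, lie furthest left, HDAC9 lies furthest right at 1.32 and 1.51, and a group around 0 lies above the line.

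Between the doses, HDAC9 and SIRT7 were higher at 10 µM than at 5 µM (2.87% of all genes were called higher), both by at least 1.5-fold (1.42% of all genes). HDAC4, HDAC6, HDAC7, KDM2B, KDM4B and KMT2E were lower at 10 µM (5.53% of all genes were called lower), none of them by 1.5-fold in this edgeR test (2.59% of all genes). At an unadjusted p under 0.05, 4 members were higher and 14 lower, where 10.8% and 14.0% of all genes were. Without 10 µM replicate 1, 5 members were higher (8.80% of all genes) and 18 lower (15.4% of all genes). The lower calls rested on small margins, since leaving out any 1 DMSO or 5 µM library left 0 of them, and leaving out any 1 of the 5 µM libraries left 1 higher call. The share of all genes called in those fits is not given here.

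**Figure D4:**
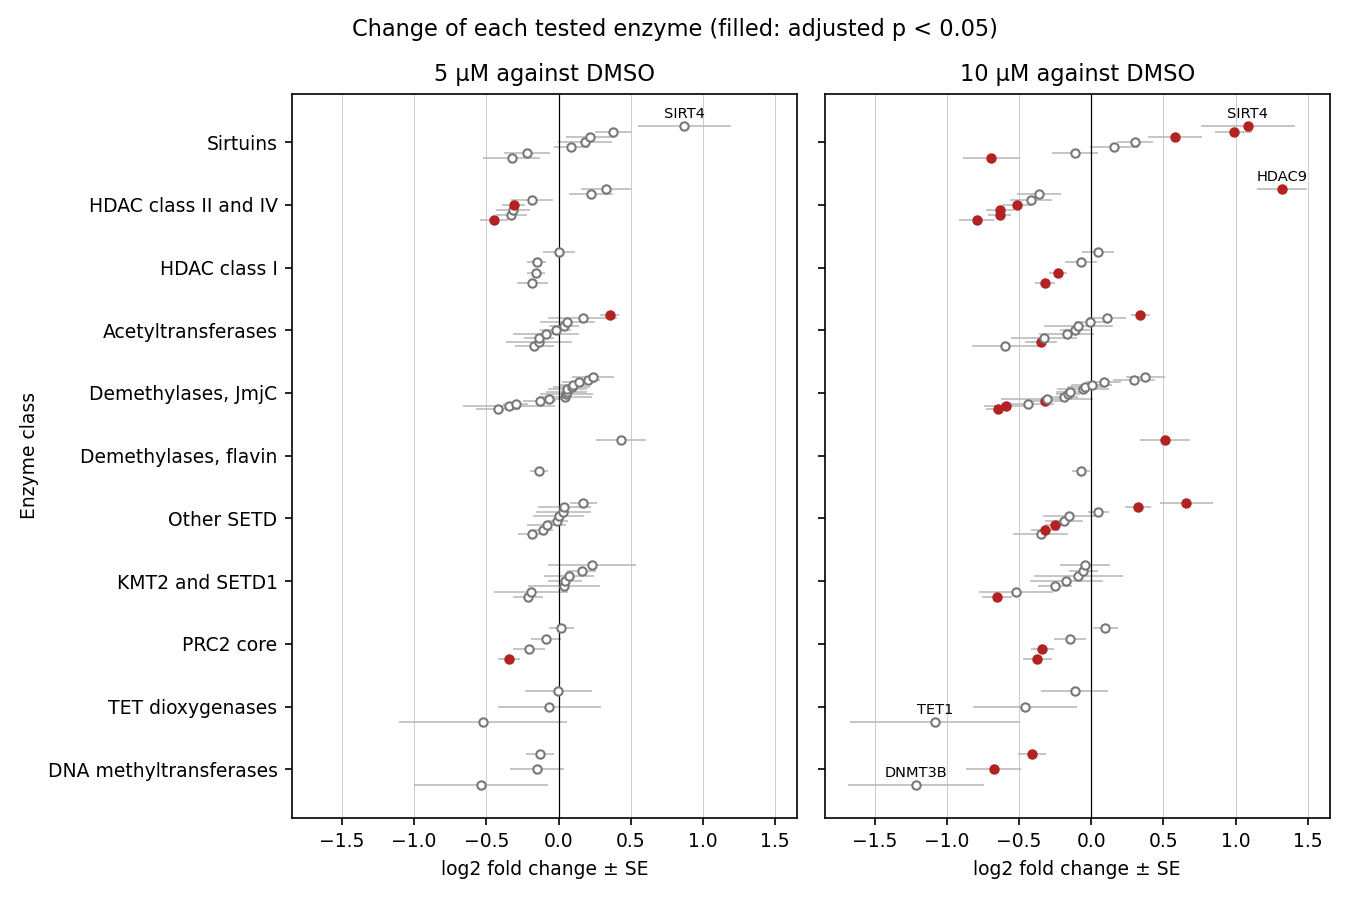
Each point is 1 of the 68 tested enzymes, with its log2 fold change against DMSO at 5 µM (left) and 10 µM (right), bars of 1 standard error, rows by enzyme class and filled points for an adjusted p under 0.05 with all libraries. At 10 µM filled points are spread on both sides, with HDAC9, SIRT4 and SIRT7 furthest right and HDAC6, SIRT3, DNMT3A and KMT2E furthest left, and the 4 filled points at 5 µM all lie within -0.45 and 0.35.

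Promoter stretches of 4 members before a transcription start are shown, for HDAC9 as the member with the largest rise and for SUZ12, KDM1B and SIRT6 as the called members whose window held an E2F site, the kind of site through which cell cycle genes are switched on. They are from RefSeq on GRCh38.p14, 5′ to 3′ on the gene's strand, and stop before the first annotated exon base in the window. The window of HDAC9 lies inside the gene, before an internal start that RefSeq lists first, and which start A375 cells use was not tested. Capitals mark the E2F words.
SUZ12, chr17:31936757-31937006 (+): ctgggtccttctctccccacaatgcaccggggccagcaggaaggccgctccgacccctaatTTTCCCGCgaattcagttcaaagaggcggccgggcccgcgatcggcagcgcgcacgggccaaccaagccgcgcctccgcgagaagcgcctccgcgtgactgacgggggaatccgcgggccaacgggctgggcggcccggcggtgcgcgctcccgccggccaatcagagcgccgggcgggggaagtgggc
KDM1B, chr6:18155172-18155328 (+): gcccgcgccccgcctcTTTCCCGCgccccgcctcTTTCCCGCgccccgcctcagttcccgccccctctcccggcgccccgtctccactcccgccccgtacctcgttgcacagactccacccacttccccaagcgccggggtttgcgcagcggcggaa
SIRT6, chr19:4182605-4182813 (-): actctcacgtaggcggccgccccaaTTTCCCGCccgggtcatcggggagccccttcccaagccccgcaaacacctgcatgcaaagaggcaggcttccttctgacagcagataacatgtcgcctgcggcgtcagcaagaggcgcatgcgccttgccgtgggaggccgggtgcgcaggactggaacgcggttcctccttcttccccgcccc
HDAC9, chr7:18495499-18495709 (+): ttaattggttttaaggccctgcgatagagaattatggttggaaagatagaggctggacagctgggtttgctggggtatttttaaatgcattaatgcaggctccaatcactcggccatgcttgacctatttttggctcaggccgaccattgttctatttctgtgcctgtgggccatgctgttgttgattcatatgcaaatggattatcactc
SUZ12 and SIRT6 held 1 E2F word each and KDM1B 2, all of them TTTCCCGC, and SUZ12 fell whereas KDM1B and SIRT6 rose at 10 µM.

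Windows of 250 bases before the first listed start were in the RefSeq table for 64 of the 70 members, of which 19 had more than 1 start, and were searched on both strands. The E2F words TTTCCCGC, TTTGGCGC, TTTCGCGC and TTTGCCGC were in 4 of the 64 windows, or 6.25%, against 2.79% of all 35116 promoters and 3.82% of the 17115 promoters of tested genes. The fourth was that of EZH1. The hypoxia response element cores ACGTG and GCGTG, which match often by their shortness, were in 62.5% of the member windows, 43.2% of all promoters and 53.2% of those of tested genes. The cyclin-gene homology region TTTGAA was in 7.81%, 13.3% and 9.51%, and the decamer consensus of p53 in 1.56%, which is HDAC2, 5.57% and 5.01%. The windows of the called members DNMT1, EZH2 and HDAC9 held no E2F word.

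Among the DNA methyltransferases all 3 tested members were lower at 10 µM in every library than in any DMSO library, as were 26.0% of all genes. DNMT3A (chr2:25227855-25342590, GRCh38), a de novo methyltransferase, was at 14.2, 12.9 and 13.5 CPM in DMSO, 11.9, 12.6 and 12.2 CPM at 5 µM and 5.76, 8.86 and 10.8 CPM at 10 µM. All 6 treated libraries lay below DMSO. DNMT3A fell at 10 µM to a log2 fold change of -0.67 ± 0.19 (adjusted p = 0.0203), or to 0.626 of DMSO, and to -0.46 ± 0.11 (adjusted p = 0.0023) without replicate 1, while the estimate at 5 µM was -0.15 ± 0.19 (adjusted p = 0.716). DNMT3B (chr20:32762385-32809356), the other de novo enzyme, was at 4.13, 3.48 and 4.42 CPM in DMSO, 1.91, 3.37 and 3.00 CPM at 5 µM and 0.516, 2.69 and 1.96 CPM at 10 µM. Replicate 1 at 10 µM was by far the lowest library and 5 µM also lay below DMSO. The estimate of -1.22 ± 0.47 (adjusted p = 0.0718) did not pass the test at 10 µM, whereas -0.79 ± 0.27 (adjusted p = 0.0230) without replicate 1 did.

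DNMT1, singled out with its values known as the maintenance enzyme, was at 282, 281 and 281 CPM in DMSO, 259, 263 and 249.6 CPM at 5 µM and 178, 235 and 223 CPM at 10 µM. The DMSO libraries were nearly level and every treated library was lower. DNMT1 fell at 10 µM to a log2 fold change of -0.41 ± 0.10 (adjusted p = 0.00908) with every library and to -0.30 ± 0.04 (adjusted p = 7.52e-06) without replicate 1. The 10 partners listed for DNA methylation, such as UHRF1, which brings DNMT1 to replicated DNA, counted 2 higher and 5 lower at 10 µM, where 16.4% and 18.0% of all genes were called. Without replicate 1 they counted 3 higher and 5 lower at 10 µM, where 23.0% and 25.8% of all genes were called. At 5 µM they counted 1 higher and 1 lower, where 4.40% and 5.81% of all genes were called. Without 10 µM replicate 1 they counted 4 higher and 4 lower at 5 µM, where 16.5% and 17.6% were.

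The TET dioxygenases, which oxidise methylcytosine, gave no call with all libraries. TET1 (chr10:68560656-68694482) was at 4.11, 5.37 and 5.20 CPM in DMSO, 3.68, 3.14 and 3.41 CPM at 5 µM and 0.31, 3.60 and 3.02 CPM at 10 µM. All treated libraries were lower than DMSO, and replicate 1 at 10 µM was lower still by a wide margin. The estimate was -1.08 ± 0.59 (adjusted p = 0.188) at 10 µM with every library and -0.57 ± 0.20 (adjusted p = 0.0274) without replicate 1, and at 5 µM it was -0.52 ± 0.58 (adjusted p = 0.671). TET2 and TET3 overlapped with DMSO at 10 µM, with estimates of -0.46 ± 0.36 (adjusted p = 0.359) and -0.11 ± 0.23 (adjusted p = 0.745), and of -0.08 ± 0.12 (adjusted p = 0.640) and 0.16 ± 0.07 (adjusted p = 0.0876) without replicate 1.

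In the PRC2 core, which methylates H3K27, 2 of 4 subunits fell at 10 µM and 1 at 5 µM. Of all genes, 18.0% and 5.81% were called lower at these doses. EZH2 (chr7:148807383-148884321), the catalytic subunit, was at 46.9, 45.4 and 46.5 CPM in DMSO, 34.4, 37.7 and 37.2 CPM at 5 µM and 34.02, 38.3 and 37.5 CPM at 10 µM. The 6 treated libraries lay below the 3 DMSO libraries and the 2 doses overlapped with each other. EZH2 fell to a log2 fold change of -0.34 ± 0.08 (adjusted p = 0.0213) at 5 µM and to -0.34 ± 0.08 (adjusted p = 0.00797) at 10 µM, and to -0.29 ± 0.06 (adjusted p = 0.00111) at 10 µM without replicate 1. EZH1, the alternative catalytic subunit, was at 33.8, 34.2 and 33.5 CPM in DMSO, 33.9, 26.3 and 28.02 CPM at 5 µM and 27.3, 32.3 and 32.1 CPM at 10 µM. Its 10 µM libraries were below DMSO by a narrow margin, with an estimate of -0.15 ± 0.11 (adjusted p = 0.333) that did not pass the test, and of -0.08 ± 0.09 (adjusted p = 0.523) without replicate 1.

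EED (chr11:86244544-86278813), which reads trimethylated H3K27 and holds the complex together, was at 34.95, 38.6 and 33.7 CPM in DMSO, 38.3, 33.4 and 37.1 CPM at 5 µM and 39.7, 38.5 and 36.7 CPM at 10 µM. The 3 groups overlapped, and the estimate was 0.10 ± 0.09 (adjusted p = 0.417) at 10 µM and 0.07 ± 0.08 (adjusted p = 0.483) without replicate 1. SUZ12, the scaffold subunit, was at 109, 112 and 108 CPM in DMSO, 106, 97.5 and 105 CPM at 5 µM and 70.96, 89.2 and 93.4 CPM at 10 µM. Every treated library was below DMSO, and SUZ12 fell at 10 µM to a log2 fold change of -0.37 ± 0.10 (adjusted p = 0.0174), and to -0.27 ± 0.05 (adjusted p = 0.000371) without replicate 1. Some reads of SUZ12 were shared with other loci, as its expected counts were not all whole numbers.

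Accessory proteins of PRC2 help to place the complex on chromatin. Of 8 listed, 0 were called higher and 4 lower at 10 µM by edgeR, with a median log2 fold change of -0.37, against 16.4% and 18.0% of all genes. Without replicate 1 at 10 µM, 1 was higher and 4 lower, with a median of -0.25, against 23.0% and 25.8%. At 5 µM 2 were lower, and 4 without 10 µM replicate 1, against 5.81% and 17.6% of all genes. PHF19, which guides PRC2 to chromatin, was at 83.4, 84.8 and 87.2 CPM in DMSO, 60.9, 58.1 and 55.1 CPM at 5 µM and 39.4, 44.99 and 39.2 CPM at 10 µM. The 3 groups did not overlap and stepped down with dose, and PHF19 fell to a log2 fold change of -0.55 ± 0.08 (adjusted p = 0.00225) at 5 µM and to -1.05 ± 0.08 (adjusted p = 1.10e-05) at 10 µM. EZH2, DNMT1 and UHRF1 are known to be made mostly in dividing cells. The 19 genes listed for DNA replication include UHRF1. At 5 µM they counted 0 higher and 12 lower, where 4.40% and 5.81% of all genes were called. At 10 µM they counted 1 higher and 16 lower, where 16.4% and 18.0% were. Without replicate 1 they counted 1 higher and 17 lower at 10 µM, where 23.0% and 25.8% were. Their median log2 fold changes with every library were -0.41 at 5 µM and -0.79 at 10 µM. The part of replication genes in these results was not tested.

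Of the H3K4 methyltransferases of the KMT2 and SETD1 group, KMT2E alone passed the test at 10 µM with every library. With the length and GC trend removed SETD1A was also called higher and KMT2A lower. KMT2E (chr7:105014179-105114361), whose SET domain is thought to have no H3K4 activity, was at 58.5, 60.9 and 59.4 CPM in DMSO, 53.98, 50.3 and 50.3 CPM at 5 µM and 32.6, 44.03 and 37.1 CPM at 10 µM. The groups did not overlap and stepped down with dose. KMT2E fell to a log2 fold change of -0.65 ± 0.10 (adjusted p = 0.00113) at 10 µM, to 0.636 of DMSO, and to -0.56 ± 0.07 (adjusted p = 7.87e-06) without replicate 1, and the estimate at 5 µM was -0.21 ± 0.10 (adjusted p = 0.257).

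The giant members of that group turned on replicate 1. KMT2D, the enhancer H3K4 methyltransferase, was at 122, 132 and 123 CPM in DMSO, 144, 149 and 149 CPM at 5 µM and 52.2, 150.4 and 151 CPM at 10 µM. The 5 µM libraries and replicates 2 and 3 at 10 µM were above DMSO, and replicate 1 was far below. Its estimate at 10 µM was -0.09 ± 0.31 (adjusted p = 0.857) with every library and 0.26 ± 0.04 (adjusted p = 0.000135) without replicate 1. KMT2A, the methyltransferase rearranged in leukaemia, was at 131, 138 and 127 CPM in DMSO, 116, 113 and 119 CPM at 5 µM and 47.99, 113 and 115 CPM at 10 µM, below DMSO in all treated libraries, with estimates of -0.52 ± 0.26 (adjusted p = 0.148) with and -0.21 ± 0.05 (adjusted p = 0.00116) without replicate 1. Of the exonic bases of KMT2A 18.9% overlap other genes, on the same and the opposite strand. KMT2A and KMT2D were singled out after their values were seen. The 11 partner subunits of these complexes, such as WDR5 and ASH2L, counted 1 higher and 2 lower at 10 µM, against 16.4% and 18.0% of all genes. Without replicate 1 they counted 1 higher and 3 lower, against 23.0% and 25.8%.

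Among the other SETD enzymes SETD4 and SETD6 rose and SETD5 and SETD8 fell at 10 µM. SETD4 (chr21:36034541-36079389), a little-studied lysine methyltransferase, was at 8.35, 7.61 and 6.45 CPM in DMSO, 6.46, 8.68 and 7.90 CPM at 5 µM and 14.6, 11.5 and 9.37 CPM at 10 µM. The 10 µM libraries lay above both other groups, which overlapped. SETD4 rose to a log2 fold change of 0.66 ± 0.18 (adjusted p = 0.02) at 10 µM, or 1.58-fold, and to 0.48 ± 0.15 (adjusted p = 0.0180) without replicate 1, where the fold was 1.39. Its counts were not all whole numbers, so that reads were shared with other loci, and the call was lost without DMSO replicate 2 or 3.

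SETD7 (chr4:139495941-139606699), which places a single methyl group on H3K4 and on other proteins, was at 66.9, 70.7 and 65.7 CPM in DMSO, 68.9, 70.5 and 68.5 CPM at 5 µM and 34.2, 61.4 and 63.99 CPM at 10 µM. Libraries at 10 µM were below DMSO, replicate 1 most of all, and the estimate was -0.35 ± 0.19 (adjusted p = 0.187) with and -0.11 ± 0.05 (adjusted p = 0.0831) without replicate 1. SETD8, which places the first methyl group on H4K20 in dividing cells, fell to a log2 fold change of -0.25 ± 0.07 (adjusted p = 0.0180) and SETD5 to -0.32 ± 0.10 (adjusted p = 0.0277). SETD6, a methyltransferase of non-histone proteins, rose to a log2 fold change of 0.32 ± 0.09 (adjusted p = 0.0213), but 21.4% of its exonic bases overlap exons of CNOT1 on the opposite strand, and the sources used here do not say if reads were counted by strand. SETD2, which places trimethylation on H3K36, was at -0.15 ± 0.18 (adjusted p = 0.547) with and 0.07 ± 0.05 (adjusted p = 0.261) without replicate 1. SETD3 and SETD9 also did not pass the test with or without replicate 1, but SETD9 was called lower with the length and GC trend removed.

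The flavin-dependent demethylases differed. KDM1A (chr1:23019443-23083689), also known as LSD1, which removes methyl groups from H3K4, was at 192, 195 and 198 CPM in DMSO, 184, 172 and 176 CPM at 5 µM and 182, 186 and 188 CPM at 10 µM. All treated libraries were lower than DMSO by a small amount, with an estimate of -0.14 ± 0.06 (adjusted p = 0.207) at 5 µM and -0.07 ± 0.06 (adjusted p = 0.408) at 10 µM, and of -0.06 ± 0.04 (adjusted p = 0.219) without replicate 1. KDM1B, its relative LSD2, was at 16.6, 15.02 and 17.05 CPM in DMSO, 21.6, 20.03 and 23.96 CPM at 5 µM and 16.3, 25.5 and 27.5 CPM at 10 µM. Replicates 2 and 3 at 10 µM and all 5 µM libraries were above DMSO, whereas replicate 1 lay within the DMSO range. KDM1B rose at 10 µM to a log2 fold change of 0.51 ± 0.17 (adjusted p = 0.0443) and to 0.71 ± 0.09 (adjusted p = 1.02e-05) without replicate 1.

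Among the 14 tested JmjC demethylases 0 rose and 3 fell at 10 µM with every library, where 16.4% and 18.0% of all genes did. Without replicate 1, 5 were called higher and 4 lower, where 23.0% and 25.8% of all genes were. KDM2B (chr12:121429097-121581015), which brings a variant Polycomb complex to CpG islands, was at 56.9, 55.5 and 55.7 CPM in DMSO, 43.05, 45.5 and 48.4 CPM at 5 µM and 32.6, 39.3 and 35.7 CPM at 10 µM. The 3 groups did not overlap. KDM2B fell at 10 µM to a log2 fold change of -0.64 ± 0.09 (adjusted p = 0.000393), to 0.640 of DMSO, and to -0.58 ± 0.07 (adjusted p = 2.33e-06) without replicate 1, and the estimate at 5 µM was -0.30 ± 0.09 (adjusted p = 0.0587). KDM3A (chr2:86440647-86492716), a hypoxia-induced H3K9 demethylase, was at 82.5, 85.04 and 85.5 CPM in DMSO, 62.3, 63.2 and 63.6 CPM at 5 µM and 39.9, 64.5 and 63.6 CPM at 10 µM. The 5 µM libraries and replicates 2 and 3 at 10 µM were nearly level and all below DMSO, with replicate 1 lower again. KDM3A fell to a log2 fold change of -0.59 ± 0.15 (adjusted p = 0.0145) at 10 µM, which was under 1.5-fold without replicate 1, at -0.40 ± 0.05 (adjusted p = 4.72e-06) or 0.758 of DMSO, and the estimate at 5 µM was -0.42 ± 0.15 (adjusted p = 0.120). The fall of KDM5B, an H3K4 demethylase known from slow-cycling melanoma cells, was -0.32 ± 0.11 (adjusted p = 0.0493) with and -0.19 ± 0.04 (adjusted p = 0.00166) without replicate 1.

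The H3K27 demethylases were among the proteins targeted in the study's inhibitor screen. KDM6A (chrX:44873177-45112602), also known as UTX, was at 29.5, 29.9 and 28.3 CPM in DMSO, 35.7, 34.1 and 33.5 CPM at 5 µM and 26.9, 37.8 and 42.9 CPM at 10 µM. All libraries at 5 µM and replicates 2 and 3 at 10 µM were above DMSO, and replicate 1 was below. The estimate at 10 µM was 0.30 ± 0.14 (adjusted p = 0.140) with every library and 0.46 ± 0.07 (adjusted p = 5.28e-05) without replicate 1, and at 5 µM it was 0.24 ± 0.14 (adjusted p = 0.365). KDM6B (chr17:7839904-7854796), or JMJD3, was at 62.4, 60.1 and 58.99 CPM in DMSO, 62.7, 66.2 and 59.6 CPM at 5 µM and 38.5, 70.8 and 65.4 CPM at 10 µM. Replicates 2 and 3 at 10 µM lay just above DMSO and replicate 1 far below. Its estimate changed sign, from -0.06 ± 0.18 (adjusted p = 0.846) with to 0.17 ± 0.06 (adjusted p = 0.0286) without replicate 1.

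The remaining JmjC demethylases were KDM2A, KDM3B, KDM4A to KDM4D, KDM5A, KDM5C and KDM7A, and none passed the test at either dose with every library. Without replicate 1 at 10 µM, KDM2A, KDM4A and KDM7A were called higher together with KDM6A and KDM6B, and KDM3B was called lower together with KDM2B, KDM3A and KDM5B. Of the exonic bases of KDM4A 48.5% overlap other genes, on the same and the opposite strand. KDM7A, which acts on H3K9 and H3K27, was at 0.37 ± 0.14 (adjusted p = 0.0561) with and 0.49 ± 0.10 (adjusted p = 0.00083) without that library.

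Of the 9 acetyltransferases KAT2A rose and KAT2B fell at 10 µM. KAT2A (chr17:42113108-42121358) was named with its values known, as the 1 member called higher at both doses with every library. Other members, HDAC9 and SIRT7 among them, were called higher at both doses without 10 µM replicate 1. HDAC9 and SIRT7 were also so called with the length and GC trend removed. KAT2A was at 66.1, 67.9 and 67.99 CPM in DMSO, 83.7, 87.6 and 86.6 CPM at 5 µM and 87.6, 85.6 and 82.3 CPM at 10 µM. Both doses lay above DMSO and overlapped with each other. Of the exonic bases of KAT2A 10.7% overlap AC099811.2 on the same strand. KAT2A rose to a log2 fold change of 0.35 ± 0.07 (adjusted p = 0.00809) at 5 µM and to 0.34 ± 0.07 (adjusted p = 0.00306) at 10 µM, and to 0.32 ± 0.05 (adjusted p = 5.10e-05) without replicate 1, so the estimates at the 2 doses were within 1 standard error. KAT2B, its paralog PCAF, fell to a log2 fold change of -0.35 ± 0.11 (adjusted p = 0.0322) at 10 µM and to -0.23 ± 0.06 (adjusted p = 0.00728) without replicate 1, with -0.02 ± 0.11 (adjusted p = 0.94) at 5 µM.

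EP300 (chr22:41091786-41180079), the acetyltransferase of H3K27 at enhancers, was at 61.1, 67.5 and 65.1 CPM in DMSO, 66.7, 76.3 and 74.6 CPM at 5 µM and 33.8, 74.2 and 73.9 CPM at 10 µM. Replicate 1 at 10 µM was the lowest library and replicates 2 and 3 lay above DMSO. The estimate was -0.09 ± 0.24 (adjusted p = 0.810) with and 0.20 ± 0.06 (adjusted p = 0.0167) without replicate 1, with a change of sign. CREBBP (chr16:3725054-3880726), its paralog, was at 78.8, 84.1 and 88.7 CPM in DMSO, 82.6, 92.8 and 86.8 CPM at 5 µM and 48.5, 90.3 and 84.9 CPM at 10 µM. Apart from replicate 1 the groups overlapped, and the estimate was -0.17 ± 0.19 (adjusted p = 0.534) with and 0.06 ± 0.06 (adjusted p = 0.438) without it. Of the MYST enzymes, KAT5, KAT7, KAT8 and KAT6A gave no call at 10 µM in either fit. KAT6B, not called with every library, was called lower without replicate 1, at -0.32 ± 0.07 (adjusted p = 0.000939). With the length and GC trend removed KAT6B was also called lower, at -0.51 ± 0.14 (adjusted p = 0.0140). For KAT5 38.6% of exonic bases overlap RNASEH2C on the opposite strand. The 26 partner subunits of acetyltransferase complexes counted 3 higher and 2 lower at 10 µM, where 16.4% and 18.0% of all genes were called, and 7 higher and 8 lower without replicate 1, where 23.0% and 25.8% were.

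Class I histone deacetylases, which work in corepressor complexes in the nucleus, changed by less than 1.5-fold. HDAC1 and HDAC2, the catalytic pair of the NuRD, SIN3 and CoREST complexes, fell at 10 µM to a log2 fold change of -0.32 ± 0.07 (adjusted p = 0.00477) and -0.23 ± 0.06 (adjusted p = 0.0182), and to -0.37 ± 0.04 (adjusted p = 7.97e-07) and -0.25 ± 0.04 (adjusted p = 9.92e-05) without replicate 1. HDAC1 was at 226, 226 and 219 CPM in DMSO, 197, 204 and 203 CPM at 5 µM and 191, 175 and 172 CPM at 10 µM, and every treated library was below DMSO. HDAC3 was at -0.07 ± 0.11 (adjusted p = 0.656) with and -0.19 ± 0.07 (adjusted p = 0.0387) without replicate 1, and HDAC8 was at 0.05 ± 0.11 (adjusted p = 0.772) and -0.09 ± 0.07 (adjusted p = 0.315). With the length and GC trend removed HDAC2 was no longer called, at -0.02 ± 0.14.

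The corepressor proteins that HDAC enzymes bind were called lower more often than higher. Of 19, 2 were called higher and 9 lower at 10 µM, where 16.4% and 18.0% of all genes were, with a median log2 fold change of -0.45. Without replicate 1 at 10 µM the counts were 3 higher and 11 lower, where 23.0% and 25.8% of all genes were called. The median was then -0.35. At 5 µM 1 was higher and 2 lower, where 4.40% and 5.81% of all genes were, with a median of -0.21, and the median of all genes tested was 0.01 at each dose. Without 10 µM replicate 1 the counts at 5 µM were 2 higher and 10 lower, where 16.5% and 17.6% of all genes were called.

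Class IIa and IIb deacetylases held the largest rise and, in HDAC6, the largest fall among members called at 10 µM with every library. HDAC5 (chr17:44076746-44123702), a signal-responsive class IIa enzyme that binds MEF2 factors, was at 61.7, 58.9 and 63.5 CPM in DMSO, 45.4, 47.7 and 41.8 CPM at 5 µM and 44.8, 39.1 and 35.03 CPM at 10 µM. All treated libraries were below DMSO, and here replicate 1 was not the lowest at 10 µM. HDAC5 fell to a log2 fold change of -0.45 ± 0.10 (adjusted p = 0.0196) at 5 µM and to -0.63 ± 0.10 (adjusted p = 0.00103) at 10 µM, and to -0.73 ± 0.07 (adjusted p = 4.35e-07) without replicate 1. HDAC7 (chr12:47782722-47833132), a class IIa relative, was at 90.6, 88.3 and 93.6 CPM in DMSO, 71.6, 75.03 and 73.1 CPM at 5 µM and 53.03, 63.9 and 58.7 CPM at 10 µM. The 3 groups did not overlap and stepped down with dose. HDAC7 fell to a log2 fold change of -0.31 ± 0.08 (adjusted p = 0.0388) at 5 µM and to -0.63 ± 0.08 (adjusted p = 0.000293) at 10 µM, to 0.645 of DMSO, and to -0.57 ± 0.05 (adjusted p = 3.40e-07) without replicate 1. Of its exonic bases 11.2% overlap genes on the opposite strand, SLC48A1 among them.

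HDAC6 (chrX:48801377-48824982), the cytoplasmic tubulin deacetylase, was at 25.8, 24.3 and 25.1 CPM in DMSO, 20.00, 21.2 and 19.2 CPM at 5 µM and 11.8, 15.1 and 16.4 CPM at 10 µM. The 3 groups did not overlap, again with a step down at each dose. HDAC6 fell to a log2 fold change of -0.79 ± 0.12 (adjusted p = 0.000774) at 10 µM, to 0.577 of DMSO, and to -0.67 ± 0.08 (adjusted p = 5.83e-06) without replicate 1, and at 5 µM the estimate was -0.31 ± 0.12 (adjusted p = 0.132). HDAC9 (chr7:18086949-19002416), a class IIa enzyme that also acts as a corepressor of MEF2, was at 10.1, 11.2 and 9.86 CPM in DMSO, 14.4, 12.5 and 12.2 CPM at 5 µM and 18.5, 29.5 and 29.7 CPM at 10 µM. Every 5 µM library was above DMSO and every 10 µM library above 5 µM, with replicate 1 the lowest at 10 µM. HDAC9 rose to a log2 fold change of 1.32 ± 0.17 (adjusted p = 0.000342) at 10 µM, or 2.49-fold, and to 1.51 ± 0.10 (adjusted p = 3.30e-09) or 2.85-fold without replicate 1, and at 5 µM the estimate was 0.33 ± 0.17 (adjusted p = 0.293).

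Between the doses HDAC9 rose to a log2 fold change of 0.99 ± 0.17 (adjusted p = 0.00772) and HDAC6 and HDAC7 fell to -0.48 ± 0.12 (adjusted p = 0.0369) and -0.32 ± 0.08 (adjusted p = 0.0387). HDAC4, the remaining large class IIa enzyme, lay above DMSO at 5 µM and overlapped with it at 10 µM, and fell between the doses to a log2 fold change of -0.58 ± 0.15 (adjusted p = 0.0452). HDAC10 fell at 10 µM to a log2 fold change of -0.51 ± 0.11 (adjusted p = 0.0044), but 55.8% of its exonic bases overlap those of MAPK12 on the same strand, so its counts are uncertain. HDAC11, the class IV enzyme, was not called with every library but was called lower without replicate 1, at -0.56 ± 0.13 (adjusted p = 0.00197). With the length and GC trend removed HDAC11 was also called lower, at -0.37 ± 0.12 (adjusted p = 0.0343).

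**Figure D5:**
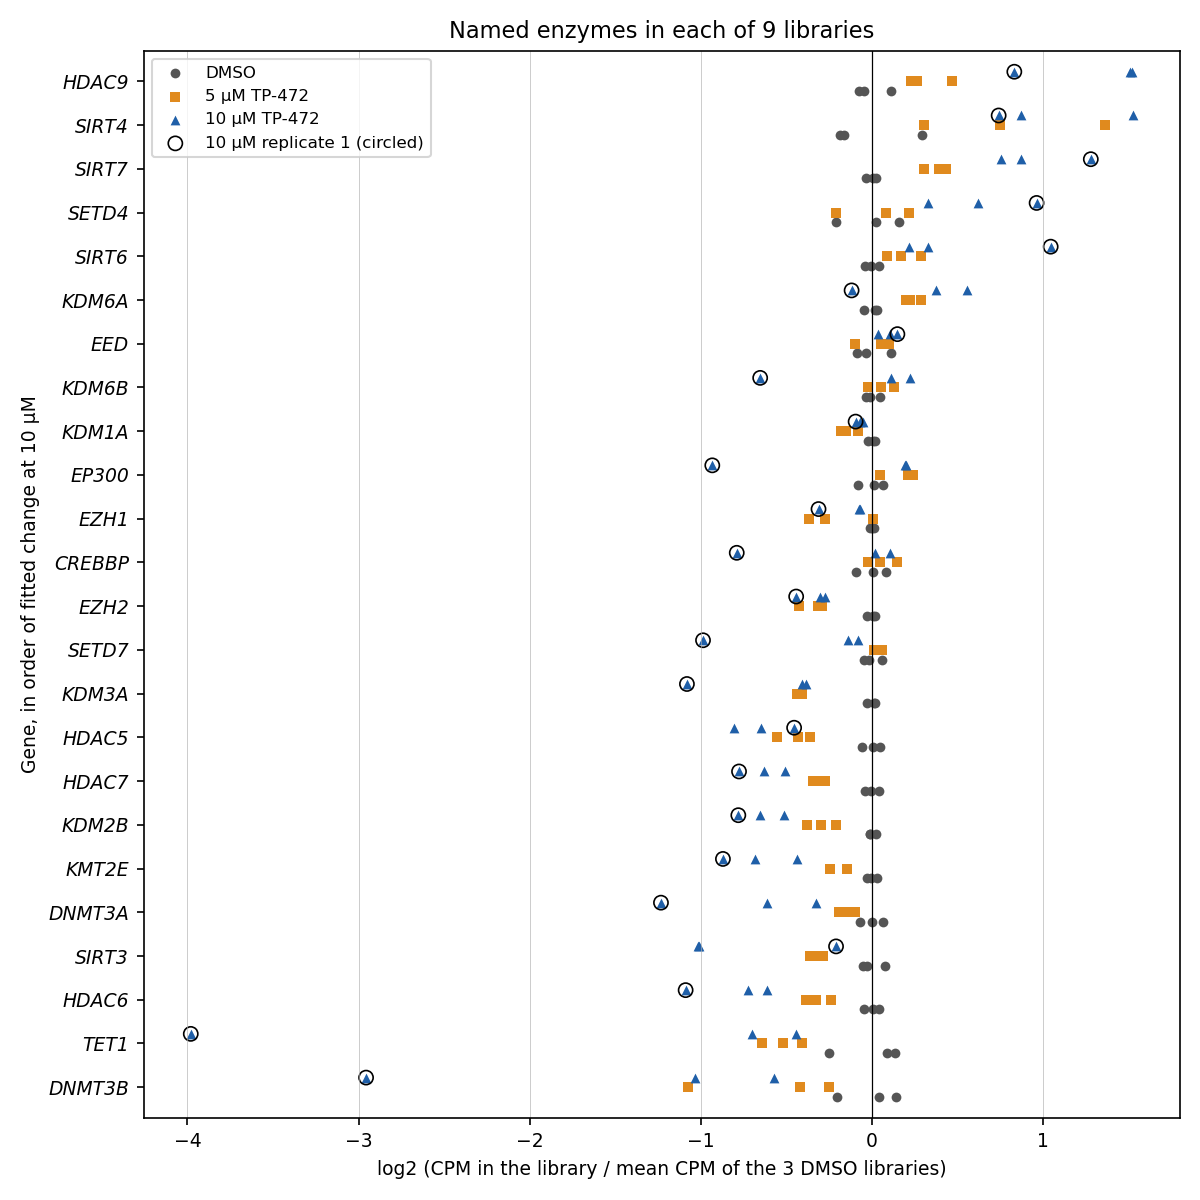
Each row is 1 named enzyme and each point 1 library, placed by the log2 ratio of its CPM to the mean of the 3 DMSO libraries (grey circles for DMSO, orange squares for 5 µM, blue triangles for 10 µM, with 10 µM replicate 1 circled in black). HDAC9, SIRT7 and SIRT4 lie to the right of DMSO at both doses, HDAC5, HDAC6, HDAC7, KDM2B, KMT2E and KDM3A lie to the left, and the circled library is displaced to the left of its group for CREBBP, EP300, KDM6B, SETD7, TET1 and DNMT3B and to the right for SIRT6, SIRT7 and SIRT3.

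The sirtuins, deacylases that need NAD, included 3 of the 8 rises. SIRT7 (chr17:81911939-81921323), the nucleolar sirtuin that removes acetyl from H3K18, was at 19.9, 20.5 and 20.7 CPM in DMSO, 25.1, 27.5 and 26.7 CPM at 5 µM and 49.4, 34.4 and 37.2 CPM at 10 µM. The 3 groups did not overlap and stepped up with dose, with replicate 1 the highest. SIRT7 rose to a log2 fold change of 0.99 ± 0.13 (adjusted p = 0.000294) at 10 µM, or 1.98-fold, and to 0.81 ± 0.07 (adjusted p = 1.80e-07) or 1.76-fold without replicate 1, and between the doses to 0.61 ± 0.13 (adjusted p = 0.0174). SIRT6 (chr19:4174109-4182604), a nuclear deacetylase of H3K9 and H3K56, was at 25.98, 24.6 and 25.2 CPM in DMSO, 30.8, 28.4 and 26.8 CPM at 5 µM and 52.1, 29.3 and 31.8 CPM at 10 µM. All treated libraries lay above DMSO, and replicate 1 at 10 µM stood well above the rest. SIRT6 rose to a log2 fold change of 0.58 ± 0.19 (adjusted p = 0.0369) at 10 µM, or 1.49-fold, and to 0.27 ± 0.08 (adjusted p = 0.00806) or 1.21-fold without replicate 1.

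The mitochondrial sirtuins went separate ways. SIRT4 (chr12:120302316-120313249), which acts on amino acid and lipid metabolism, was at 1.49, 2.08 and 1.51 CPM in DMSO, 4.36, 2.85 and 2.09 CPM at 5 µM and 2.83, 3.10 and 4.87 CPM at 10 µM. Levels were low, and every treated library was above DMSO although the doses overlapped. SIRT4 rose to a log2 fold change of 1.09 ± 0.32 (adjusted p = 0.0263) at 10 µM, or 2.12-fold, and to 1.23 ± 0.31 (adjusted p = 0.00368) without replicate 1, but was not called with the length and GC trend removed, at 0.85 ± 0.35 (adjusted p = 0.0767). SIRT3 (chr11:215458-236931), the main mitochondrial deacetylase, was at 13.4, 13.2 and 14.4 CPM in DMSO, 10.8, 11.2 and 10.7 CPM at 5 µM and 11.8, 6.79 and 6.77 CPM at 10 µM. Treated libraries lay below DMSO, and replicate 1 at 10 µM was close to the 5 µM level while replicates 2 and 3 were lower. SIRT3 fell to a log2 fold change of -0.69 ± 0.20 (adjusted p = 0.0216) at 10 µM and to -1.01 ± 0.11 (adjusted p = 1.07e-06) without replicate 1, to 0.495 of DMSO, and shares 6.07% of its exonic bases with PSMD13 on the opposite strand.

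SIRT1, the nuclear deacetylase of p53 and histones, was at 0.16 ± 0.17 (adjusted p = 0.503) at 10 µM with every library and was called higher without replicate 1, at 0.35 ± 0.09 (adjusted p = 0.00310). SIRT2 of the cytoplasm and SIRT5 of mitochondria were at 0.30 ± 0.12 (adjusted p = 0.0838) and -0.11 ± 0.16 (adjusted p = 0.627) and did not pass with or without replicate 1. SIRT2 was called higher with the length and GC trend removed. Over the 7 sirtuins the median log2 fold change at 10 µM was 0.30 with and 0.27 without replicate 1, and over the 7 class II and IV deacetylases it was -0.51 and -0.57. The median of the 7 KMT2 and SETD1 enzymes moved from -0.17 to 0.05.

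Among partner genes WHSC1, also known as NSD2, an H3K36 methyltransferase, was among those with the largest change. It was at 227, 234 and 231 CPM in DMSO, 165, 173 and 169 CPM at 5 µM and 84.2, 127 and 124 CPM at 10 µM, with no overlap of groups, and fell to a log2 fold change of -1.05 ± 0.13 (adjusted p = 0.000287) at 10 µM and -0.88 without replicate 1. The list of 15 other lysine methyltransferases, WHSC1 included, counted 0 higher and 6 lower at 10 µM by edgeR, against 16.4% and 18.0% of all genes. Without replicate 1 that list counted 0 higher and 8 lower, against 23.0% and 25.8% of all genes. At 10 µM the 89 partner genes together counted 8 higher and 28 lower, against 16.4% and 18.0% of all genes. Without replicate 1 they counted 15 higher and 39 lower, against 23.0% and 25.8%.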

How the data were processed

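Expected counts by gene symbol for all 9 libraries were deposited by the authors as 1 table, with no scaling to library size. The submitters' processing notes name Bowtie2 2.1.0, RSEM 1.2.15 and hg38. The sources used here do not give the annotation, the filters or the use of strand in counting. Methods describe oligo-dT purification of mRNA and the series design depletion of ribosomal RNA, which could not be settled. Between 10.6% and 13.8% of values were not whole.

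Expected counts were rounded and tested with edgeR 4.0.16 in R 4.3.3 (TMM factors 0.957 to 1.03, filterByExpr, quasi-likelihood F test, all groups in 1 fit). The standard error is the size of the log2 fold change over the square root of F. DESeq2 1.42.0 and limma 3.58.1 were alternatives. The trend fit used splines with 4 degrees of freedom on transcript length and GC content from GENCODE 29, known for all 68 members tested. Python 3.11.15 made tables, promoter searches and figures.

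Members and lists were chosen with earlier results of these data known. Named with values in every library are members called by at least 1.5-fold at either dose or between doses, the 5 largest rises and falls at 10 µM with mean CPM of 1 or more, and targets of the study's inhibitor screen, plus members said to be singled out, KDM1B, SUZ12 and HDAC1 among them. For partner lists, the 3 called genes of largest change were selected, of which 1 is not reported here. P-values measure the spread between these libraries. No library pair agreed within sampling noise.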

Additional observations from a re-analysis of the deposited data

How the results depend on the processing

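The counts of members called kept within 1.5 times of the reported values under DESeq2-type and upper-quartile factors, both other filters on low counts and limma-voom. DESeq2 called 2 members higher and 6 lower at 5 µM. Fits of only the 2 groups compared called 15 higher and 20 lower at 5 µM, 10 lower at 10 µM, and 1 higher and 0 lower between the doses. Leaving out 1 library at a time gave 0 to 12 members higher and 0 to 19 lower at 5 µM, 3 to 17 higher and 10 to 25 lower at 10 µM, and 1 to 5 higher and 0 to 18 lower between the doses, with each largest count obtained without 10 µM replicate 1. Removing the length and GC trend gave 4 higher and 7 lower at 5 µM and 4 higher between the doses. At 1.5-fold there were 0 higher and 0 lower at 5 µM, 4 and 8 at 10 µM and 0 lower between the doses, and at an adjusted p under 0.01 there were 0 lower at 5 µM, 3 higher and 9 lower at 10 µM, and 1 higher and 0 lower between the doses. The share of all genes called is not given here for fits of only the 2 groups compared. Nor is it given for fits leaving out a library other than 10 µM replicate 1. Those counts can therefore not be set against all genes. The cause of the differences between fits was not tested.

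Replicate numbers are shared between groups, but same-numbered libraries did not deviate together (correlations of -0.07 to 0.10), so they were not taken as pairs. With the replicate block, 1 member was lower between the doses in place of 6, and with the block and the trend removed 3 were higher and 7 lower at 5 µM and 4 higher between the doses. Shares of all genes called are not given here for the fits with the block.

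Chosen after seeing the data were limma-voom with library quality weights, in which 10 µM replicate 1 had a weight of 0.0616, and the trend removed without that library. They gave 12 and 14 members higher and 20 and 20 lower at 5 µM, 13 and 21 higher at 10 µM, 8 higher with the second between the doses, and 10 and 12 lower. The share of all genes called in both is not given here, so these counts cannot be set against all genes.

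Log2 fold changes that changed sign belong to members with no call with every library at that dose. With 1 library left out at a time, SETD4 at 5 µM ran from -0.057 to 0.15 and EED at 5 µM from -0.022 to 0.077, and at 10 µM CREBBP ran from -0.33 to 0.06, EP300 from -0.26 to 0.20 and KDM6B from -0.22 to 0.17, these 3 being positive only without 10 µM replicate 1. With the trend removed, with quality weights, and with the trend removed and 10 µM replicate 1 left out, CREBBP went to 0.0098, 0.037 and 0.16, EP300 to 0.019, 0.16 and 0.22, and KDM6B to 0.20, 0.14 and 0.40, with 0.18 for KDM6B under the trend removed and the replicate block. EED at 10 µM went to -0.026 with the trend removed and replicate 1 left out. Members of low level, such as SIRT4, TET1 and DNMT3B, rest on fewer counts than most, and 3 libraries per group limit the precision of all values.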
